A study of Arabidopsis thaliana with 12 samples.

Results

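Messenger RNA of sorted endodermis was compared with that of whole roots in the myb36-1 mutant of Arabidopsis thaliana. The comparison rests on 6 of the 12 libraries of the study, chosen by their labels alone: 3 libraries of mutant endodermal cells and 3 of mutant whole roots. Both groups carried the myb36-1 allele in the Col-0 ecotype, and the seedlings were grown on plates with 1% sucrose until 6 days after exposure to light. Sorted cells had been released from the roots as protoplasts, which are cells without their wall, and were collected by fluorescence-activated sorting before freezing on dry ice. Whole roots were frozen in liquid nitrogen at harvest, and their RNA was extracted with another kit of the same make. Cell type, protoplasting, sorting, freezing and RNA kit therefore cannot be told apart in any value below. No source used here states the fluorescent marker line, the number of cells per sort or the lesion of myb36-1. The other 6 libraries, 3 of wild-type (Col-0) sorted endodermis and 3 of wild-type whole root, enter only where the mutant difference is set against the same difference in wild type.

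The endodermis is the innermost layer of the cortex and surrounds the vascular cylinder of the root. Its cells first deposit the Casparian strip, a ring of lignin that seals the space between neighbouring walls, and later coat themselves with suberin, a polyester of fatty acids, alcohols and ferulate. SCARECROW (SCR) specifies the layer, and the transcription factor MYB36 switches on the genes that place and build the strip. Membrane CASP proteins mark the strip domain, peroxidases and dirigent proteins polymerise lignin there, and the peptides CIF1 and CIF2, made in the stele, are sensed by the endodermal receptor GSO1, also known as SGN3, when the seal is open.

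Total counts were 13427477, 7874107 and 7280556 for the sorted mutant libraries and ran from 19812171 to 21691381 for the mutant roots. No count in a library still allows up to 3, which is 0.138 to 0.412 CPM (counts in every 1000000 of a library). Rank correlations between replicates were 0.918 to 0.928 among the mutant sorted libraries and 0.978 to 0.983 among the mutant roots. The mitochondrial share of counts was 3.75%, 3.92% and 7.46% in sorted replicates 1, 2 and 3 and 1.2% to 1.5% in the root. Among the mutant sorted libraries, replicate 1 had the highest summed level of the wounding, jasmonate, heat shock and abscisic acid lists. It had the lowest of the meristem, S phase and mitosis lists. Medians of those lists, and values of some of their genes, are given with and without it.

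Levels are CPM scaled over the 6 mutant libraries, and a log2 fold change, or log2 change, is the sorted level over the root level. A gene was called at an edgeR adjusted p under 0.05, and a standard error (SE) of a log2 fold change was derived from the test statistic. MYB36 (AT5G57620, chr5:23334767-23336632, plus strand, 3 exons, TAIR10.1) was read in all 6 libraries. It stood at 97.6, 192 and 101 CPM in the sorted replicates 1, 2 and 3 and at 19.3, 18.0 and 16.6 CPM in the roots. Every sorted library lay above every root library, with a log2 change of 2.86 (SE 0.31, edgeR adjusted p = 0.000831). The wild-type sort was above the wild-type root by a log2 fold change of 2.57, and the mutant and wild-type changes differed by 0.27 (SE 0.39, edgeR adjusted p = 0.649). A count over the whole transcript does not check a lesion of unknown place, so MYB36 gives no check of the genotype labels. CASP2, picked after its values were seen, differed between the sorted libraries of the genotypes. It is therefore no independent check of the labels. That gene was at 3.46, 2.52 and 0.437 CPM in the mutant sort and 193, 284 and 249.8 CPM in the wild-type sort.

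Of 19347 genes tested, 5727 (29.6%) were called. In the mutant sort 2384 (12.3%) stood higher than in the mutant root and 3343 (17.3%) lower. Against a fold of 2, 970 (5.01%) were higher and 1970 (10.2%) lower. All 3 sorted libraries lay above all 3 root libraries for 3832 genes (19.8%) and below them for 6003 (31%). The median log2 fold change over all genes tested was -0.08. The number of calls depended on which libraries entered: it was 3042, 2905 and 2940 without root replicate 1, 2 and 3, and without sorted replicate 1 the genes called higher numbered 3669. Altogether 479 tested genes had no count in any sorted library, of which 83 reached a mean of 5 CPM in the root, and 7 had no count in any root library. In what follows, 23 lists of genes with known roles hold 324 members, 301 of which passed the filter on low counts. Besides MYB36, the defining markers, the 2 largest rises and falls of each list and the largest changes over all genes, single genes were picked after their values were seen.

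**Figure D1:**
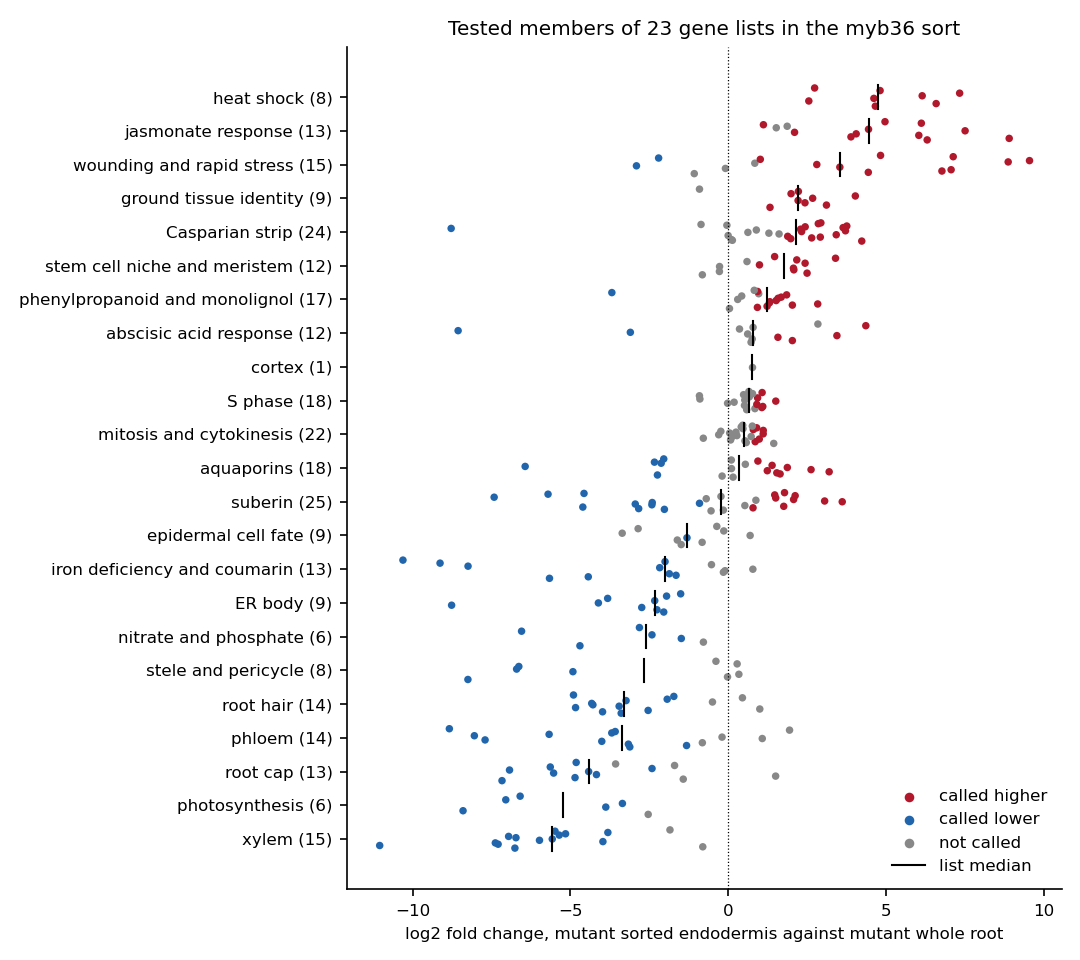
Each point is one tested gene of the list named at the left, with the number of tested members in brackets; the horizontal axis is its log2 fold change of mutant sorted endodermis against mutant whole root. Red and blue points were called higher and lower, grey points were not called, and the black bar is the list median, from 4.74 for heat shock to -5.58 for xylem.

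The mutant sort held a high level of the genes that specify the endodermis and the ground tissue. SCR, the GRAS factor that sets endodermal fate and the asymmetric division of its stem cells, was at 695, 1008 and 825 CPM in the sort and at 49.95, 53.3 and 51.4 CPM in the root. The groups did not come near each other, with a log2 change of 4.03 (SE 0.21, edgeR adjusted p = 0.000101). Of the 9 ground tissue regulators, 8 were called higher and none lower, with a median log2 change of 2.22. BLJ (BLUEJAY), a zinc-finger partner of SCR, was at 83.7, 70.8 and 85.1 CPM against 8.34, 10.1 and 9.20 CPM, a log2 change of 3.11 (SE 0.19, edgeR adjusted p = 0.000132). JKD (JACKDAW), another member of that zinc-finger family, was at 173, 217 and 122 CPM against 43.9, 42.6 and 42.1 CPM, with a log2 fold change of 1.99 (edgeR adjusted p = 0.00117). SCL3, which acts with SCR in gibberellin response, rose by a log2 fold change of 2.22 (edgeR adjusted p = 0.000596). NUC (NUTCRACKER) alone was not called, at -0.91 (edgeR adjusted p = 0.124). SHR, which is transcribed in the stele and moves as a protein into the endodermis, was at 44.0, 41.8 and 43.7 CPM in the sort and 35.5, 35.1 and 35.8 CPM in the root. Its log2 fold change of 0.28 was not called (edgeR adjusted p = 0.229), although the groups did not overlap. For the neighbouring cortex, CO2 was too low to be tested at 0.532, 1.76 and 0 CPM in the sort, and AED3, at 17.8, 5.54 and 6.55 CPM in the sort and 3.50, 4.28 and 9.90 CPM in the root, was not called (edgeR adjusted p = 0.388). Only these 2 cortex genes were listed, so the share of cortex cells in the sort was not resolved.

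**Figure D2:**
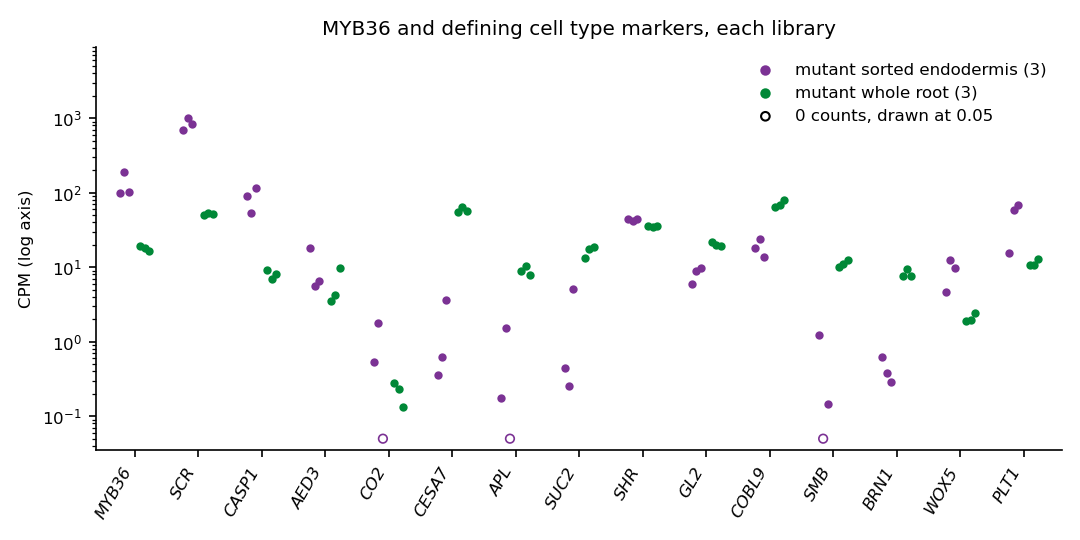
CPM on a log axis of MYB36 and 14 defining markers in the 3 mutant sorted libraries (purple) and the 3 mutant root libraries (green), one point per library; open circles are libraries at 0 counts. SCR stands at 695 to 1008 CPM in the sort and 49.95 to 53.3 CPM in the root, while the xylem, phloem and root cap markers CESA7, APL, SMB and BRN1 are lower in every sorted library.

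Genes of the Casparian strip were split in the mutant sort. Of 24 tested, 14 were called higher than in the root, 1 was called lower (2 without sorted replicate 3) and 9 missed the call, and the median log2 change was 2.14. The 25th member, CIF1, was too low to test. PER3, PER39 and PER72, lignin-forming peroxidases, were all called higher. PER3 was at 1806, 1204 and 1591 CPM in the sort and 78.8, 79.7 and 86.0 CPM in the root, a log2 change of 4.23 (SE 0.23, edgeR adjusted p = 0.000106). PER64, the peroxidase localised at the strip, was at 76.5, 110.0 and 193 CPM against 8.53, 10.1 and 9.37 CPM, a log2 change of 3.76 (SE 0.37, edgeR adjusted p = 0.000576). CASP1 was at 89.8, 53.4 and 115 CPM against 9.03, 6.89 and 8.05 CPM, a log2 change of 3.42 (SE 0.32, edgeR adjusted p = 0.000499). CASP4 and CASP5 were also called higher, and so was ESB1, a dirigent protein of the strip, at 42.3, 32.4 and 39.1 CPM against 10.2, 9.68 and 10.9 CPM and a log2 fold change of 1.89 (edgeR adjusted p = 0.00099). For each gene with values given here every sorted library lay above every root library.

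A second group of strip genes was low in both mutant tissues and was not called. CASP2 was at 1.38, 0.419 and 0.836 CPM in the mutant root, with an edgeR adjusted p of 0.292 against the sort. PER9, a peroxidase, was at 2.40, 2.02 and 1.31 CPM in the mutant sort and 3.09, 0.884 and 1.41 CPM in the mutant root (log2 fold change 0.10, edgeR adjusted p = 0.928). The wild-type sort held 462, 640.2 and 652 CPM of PER9 and the wild-type root 68.9, 111 and 68.2 CPM. The log2 change of PER9 in the mutant minus that in wild type was -2.72 (SE 0.54, edgeR adjusted p = 0.00294). DIR9, DIR16 and DIR18, which encode dirigent-type proteins, were at 4.52, 5.67 and 4.22, at 1.51, 6.55 and 6.84 and at 14.7, 8.06 and 14.3 CPM in the mutant sort. None of the 3 was called against the mutant root (edgeR adjusted p = 0.0984, 0.552 and 0.105), although DIR9 and DIR18 did not overlap between tissues. In wild type each was called higher in the sort, but their changes did not pass the test between genotypes (edgeR adjusted p = 0.373, 0.197 and 0.517).

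The receptor branch of the strip pathway was high in the mutant sort. GSO1, the receptor kinase for CIF peptides, was at 495, 359 and 392 CPM against 84.2, 86.2 and 83.7 CPM in the root, a log2 change of 2.29 (SE 0.18, edgeR adjusted p = 0.000272). RBOHF, the NADPH oxidase that supplies the peroxidases with reactive oxygen, was at 1175, 376 and 635 CPM against 107, 118 and 124 CPM, with a log2 fold change of 2.65 (edgeR adjusted p = 0.00322). SGN1, a receptor-like cytoplasmic kinase that acts downstream of GSO1, was at 121, 94.2 and 82.2 CPM against 24.8, 27.4 and 23.1 CPM, with a log2 fold change of 1.98 (edgeR adjusted p = 0.000752). The ligand gene CIF2 went the other way: it had 2 counts in all in the 3 sorted libraries, both in replicate 1, and 2421 in the 3 roots, a ratio of 479 with an exact 95% counting interval of 132.5 to 3958. TPST, which sulfates these peptides, was not called (0.13, edgeR adjusted p = 0.652). GSO1, RBOHF and SGN1 stood above the root in every sorted library and CIF2 below it. In wild type GSO1 was not called between sort and root (log2 fold change -0.13), and the 2 genotypes differed by 2.40 (SE 0.34, edgeR adjusted p = 0.00035).

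**Figure D3:**
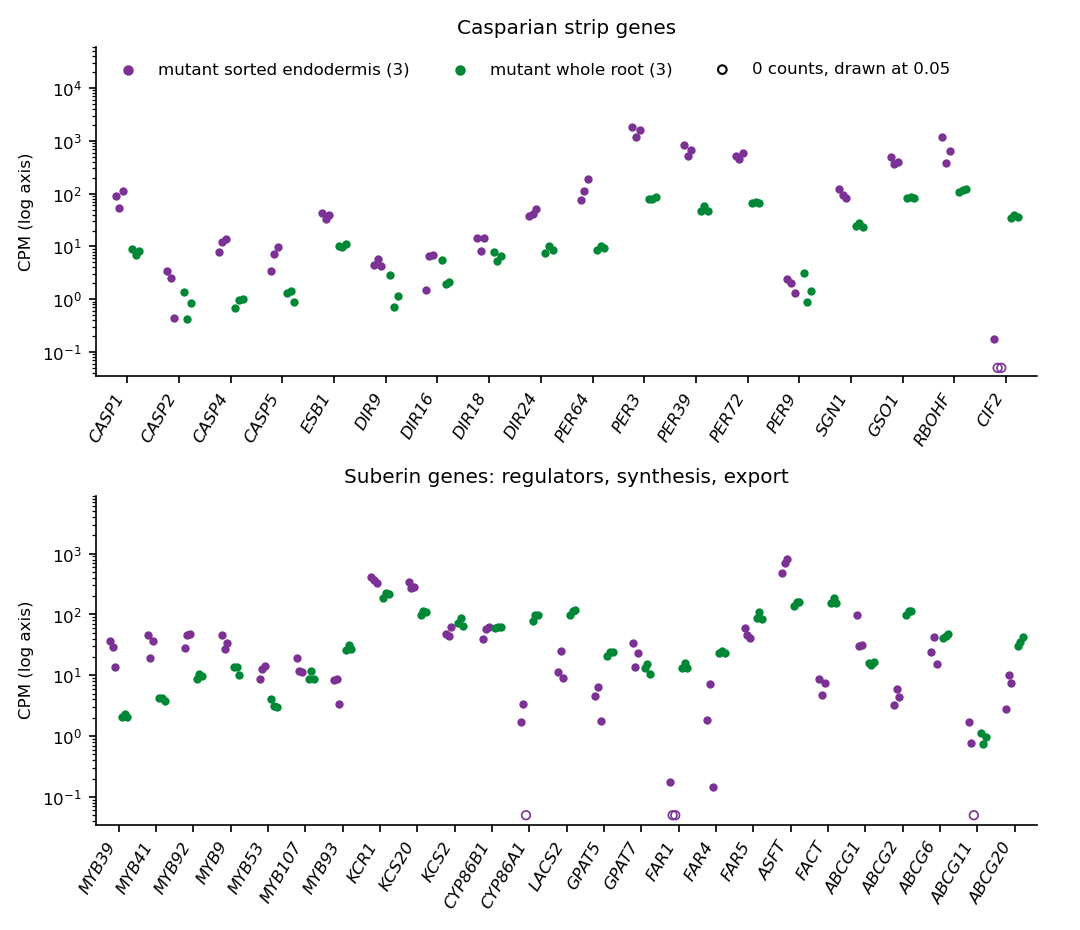
CPM on a log axis of 18 Casparian strip genes (top) and the 25 suberin genes (bottom) in each of the 3 mutant sorted libraries (purple) and 3 mutant root libraries (green); open circles are libraries at 0 counts. CASP2, DIR16 and PER9 stay at 0.419 to 6.84 CPM in both tissues, and the suberin regulators at the left are mostly above the root while CYP86A1, LACS2, FACT and ABCG2 are far below it.

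Suberin genes moved in both directions. Of 25 members, all tested, 9 were called higher, 10 lower and 6 not called, and the median log2 fold change was -0.23. Among the 7 MYB regulators, 5 were called higher, MYB107 was not called and MYB93 was called lower. MYB39 was at 36.4, 28.7 and 13.7 CPM in the sort against 2.03, 2.33 and 2.07 CPM in the root, a log2 change of 3.61 (SE 0.42, edgeR adjusted p = 0.00112). MYB41 was at 46.5, 19.5 and 36.1 CPM against 4.29, 4.24 and 3.74 CPM, a log2 change of 3.06 (SE 0.36, edgeR adjusted p = 0.00122). MYB92, MYB53 and MYB9 had log2 fold changes of 2.07, 1.79 and 1.51 (edgeR adjusted p = 0.00169, 0.01 and 0.00618). In all 5 the lowest sorted library was above the highest root, as it was for 19.8% of all genes tested. MYB93 was at 8.43, 8.82 and 3.35 CPM against 25.9, 31.6 and 26.8 CPM, with a log2 fold change of -2.02 (edgeR adjusted p = 0.00736).

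Among the enzymes of monomer synthesis some were far below the root and others were level or higher. CYP86A1, the fatty acid hydroxylase of suberin monomers, was at 1.69, 3.40 and 0 CPM in the sort against 79.1, 96.8 and 97.9 CPM in the root, a log2 change of -5.71 (SE 0.75, edgeR adjusted p = 0.00181), or -6.48 without sorted replicate 2. The fatty alcohol gene FAR1 had 2 counts in the sort against 928 in the root, both in sorted replicate 1, a ratio of 183.6 (exact 95% counting interval 50.69 to 1518). LACS2, which activates fatty acids with coenzyme A, was at 11.3, 25.3 and 9.17 CPM against 97.1, 113 and 118 CPM (log2 fold change -2.84, edgeR adjusted p = 0.00217). GPAT5, the acyltransferase that builds suberin glycerol esters, was at 4.61, 6.43 and 1.75 CPM against 20.8, 24.1 and 24.1 CPM (log2 fold change -2.42, edgeR adjusted p = 0.0069). CYP86B1, by contrast, was level with the root at 38.9, 56.8 and 63.0 CPM against 60.4, 63.3 and 62.2 CPM and was not called (edgeR adjusted p = 0.464). The elongation genes KCS20 and KCR1, which also serve other long-chain lipids, were called higher (1.47 and 0.79, edgeR adjusted p = 0.00115 and 0.0124).

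The acyltransferases for aromatic esters split as well. ASFT, which joins ferulate to suberin, was at 487, 705 and 810.2 CPM in the sort against 139, 160.4 and 161 CPM in the root, a log2 change of 2.12 (SE 0.23, edgeR adjusted p = 0.000863). FACT, which makes caffeate esters of fatty alcohols, was at 8.69, 4.66 and 7.42 CPM against 156, 188 and 153 CPM, a log2 change of -4.57 (SE 0.28, edgeR adjusted p = 0.000128). Of the exporters, ABCG1 was called higher (log2 fold change 1.76, edgeR adjusted p = 0.0271), with its highest value in sorted replicate 1 at 97.2, 30.0 and 31.9 CPM. ABCG2 was at 3.19, 6.05 and 4.37 CPM against 99.7, 116 and 114 CPM (log2 fold change -4.61, edgeR adjusted p = 0.000128) and ABCG20 at 2.84, 10.2 and 7.57 CPM against 30.7, 35.6 and 42.1 CPM (log2 fold change -2.41, edgeR adjusted p = 0.00708).

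Genes of the phenylpropanoid route, which supplies lignin and ferulate, were largely higher in the mutant sort. Of 17 tested, 11 were called higher, 1 lower and 5 not called, with a median log2 change of 1.23. PAL1, the entry enzyme, was at 2029, 1775 and 2029.7 CPM against 736, 763 and 840.5 CPM (log2 fold change 1.32, edgeR adjusted p = 0.0017), and C4H, the next step, had a log2 fold change of 1.31 (edgeR adjusted p = 0.00242). CCOAOMT1, which methylates the caffeoyl ring on the way to guaiacyl lignin and ferulate, was at 3581, 3233 and 3122 CPM against 875, 975 and 902 CPM (log2 fold change 1.85, edgeR adjusted p = 0.000524). Per kilobase of exon it was the 5th most abundant nuclear protein-coding transcript of the sort and the 44th of the root. CCR2, a cinnamoyl-CoA reductase, was at 153, 39.4 and 66.6 CPM against 9.91, 13.1 and 13.3 CPM, a log2 change of 2.84 (SE 0.49, edgeR adjusted p = 0.00545), or 2.12 without sorted replicate 1. 4CL3, a ligase mostly assigned to the flavonoid branch, had a log2 change of 2.03 (SE 0.31, edgeR adjusted p = 0.00322). For each of these the tissues did not overlap. The single fall was F5H1, the hydroxylase that leads to syringyl units, at 3.99, 1.51 and 2.76 CPM in the sort against 24.3, 38.5 and 45.6 CPM in the root, a log2 change of -3.69 (SE 0.43, edgeR adjusted p = 0.00113).

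Most tested genes of the vascular cylinder were called lower in the mutant sort. In bulk libraries fewer cells of a type and less RNA per cell cannot be told apart. Of 15 xylem genes tested, 13 were called lower and 2 not called, and the summed level of the list was 14.2 to 28.7 CPM in the sort against 632.8 to 770.1 CPM in the root. The median log2 change was -5.58, or -5.49 with genes at 0 set at their bound, and it was -6.35 without sorted replicate 2 and -6.29 without sorted replicate 3. CESA7, a cellulose synthase of secondary walls, was at 0.355, 0.630 and 3.64 CPM against 55.0, 63.9 and 57.1 CPM, a log2 change of -5.36 (SE 0.72, edgeR adjusted p = 0.00195), or -6.94 without sorted replicate 3. IRX9, a glycosyltransferase of xylan, had no count in the sort and 1136 in the root, so it was at least 149.9-fold lower, taking 3 counts over the 3 sorted libraries as the floor. MYB83, a master regulator of secondary walls, was also at 0 in the sort with 89 counts in the root, at least 11.74-fold lower. VND6 and VND7, the switches of vessel fate, were low in both tissues and were not called (edgeR adjusted p = 0.312 and 0.535).

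Phloem genes gave the same picture, with 10 of 14 called lower, none higher and a median of -3.37. Without root replicate 1, 2 or 3 the number called lower was 6 in each case. SWEET11 and SWEET12, the sucrose exporters of phloem parenchyma, were at 0.355, 0 and 0 CPM against 39.2, 41.2 and 44.1 CPM and at 0.177, 0.126 and 0 CPM against 45.5, 48.6 and 73.5 CPM. SWEET12 had 3 counts in the sort against 3703 in the root, a ratio of 488.5 (exact 95% counting interval 167 to 2370), and SWEET11 had a log2 change of -8.05 (SE 0.64, edgeR adjusted p = 0.000272). Both fell further without sorted replicate 1: SWEET12 to a log2 fold change of -9.55, and SWEET11 to 0 counts in the sort. The defining markers passed the test by a smaller margin: APL was at 0.177, 1.51 and 0 CPM in the sort against 8.80, 10.4 and 7.97 CPM (log2 fold change -4.01, edgeR adjusted p = 0.0216), and SUC2 at 0.444, 0.252 and 5.09 CPM against 13.4, 17.7 and 18.6 CPM (log2 fold change -3.16, edgeR adjusted p = 0.0434). Without root replicate 1, 2 or 3 neither was called, with edgeR adjusted p of 0.0841 to 0.0935 for APL and 0.109 to 0.141 for SUC2. SUC2 was also lost without sorted replicate 2 (edgeR adjusted p = 0.0656), and sorted replicate 3 held most of its reads. The log2 fold change was -6.27 for APL without sorted replicate 2 and -5.51 for SUC2 without sorted replicate 3.

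Of the stele and pericycle list, 8 of 11 members were tested, of which 4 were called lower and 4 not called. SHR, the defining marker of the stele, was among those not called (log2 fold change 0.28), with every sorted library above every root library. NPF7.3, the nitrate exporter that loads the xylem from the pericycle, was at 1.95, 0.252 and 0.582 CPM against 315, 346 and 275 CPM, a log2 change of -8.25 (SE 0.57, edgeR adjusted p = 0.000176). PHO1, the phosphate exporter of the same cells, was at 5.86, 1.01 and 0.146 CPM against 271, 274 and 255 CPM, a log2 change of -6.71 (SE 0.87, edgeR adjusted p = 0.00169). Without sorted replicate 1 they were -9.57 and -8.78. The list's median of -2.66 became -1.60 with LBD29, which was at 0 in the sort, at its bound, and -0.38 with a filter of 1 CPM in 3 libraries. AHK4, the cytokinin receptor, was level at 134, 117 and 169 CPM against 154, 138 and 134 CPM (edgeR adjusted p = 0.943).

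Genes of the root cap and root hairs were also low. Of 13 root cap genes, 9 were called lower, 4 not called and none higher, with a median of -4.42, or -5.22 without sorted replicate 1. Their summed level was 52.9 to 92.2 CPM in the sort against 501.4 to 639.7 CPM in the root. BFN1, a nuclease of dying root cap cells, was at 0.177, 0.378 and 0.146 CPM against 25.8, 41.3 and 36.4 CPM, a log2 change of -7.17 (SE 0.44, edgeR adjusted p = 0.000128). EXI1, another gene of that programme, had 3 counts, all in sorted replicate 1, against 951, a ratio of 125.4 (exact 95% counting interval 42.8 to 609.4). BRN1, a factor of root cap maturation, was at 0.621, 0.378 and 0.291 CPM against 7.51, 9.31 and 7.66 CPM, a log2 change of -4.18 (SE 0.51, edgeR adjusted p = 0.00138). SMB, a factor of lateral root cap fate, was at 1.24, 0 and 0.146 CPM against 10.05, 11.1 and 12.4 CPM (log2 fold change -4.42, edgeR adjusted p = 0.0117), a call that was lost whichever root library was left out (edgeR adjusted p = 0.052 to 0.0626). Its log2 fold change was -7.22 without sorted replicate 1 and -3.82 without sorted replicate 2.

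Of 14 root hair genes, 11 were called lower and 3 not called, with a median of -3.32. All 11 lay below every root library, as did 31% of all genes tested. PER73, a peroxidase of hairs, was at 6.21, 4.03 and 3.64 CPM against 128, 139 and 154 CPM, a log2 change of -4.90 (SE 0.27, edgeR adjusted p = 0.000108). EXPA18, a root hair expansin, was at 1.69, 3.53 and 0.291 CPM against 54.1, 55.3 and 50.9 CPM, a log2 change of -4.84 (SE 0.60, edgeR adjusted p = 0.00144), or -5.56 without sorted replicate 2. COBL9, the hair marker, was at 17.8, 24.2 and 13.5 CPM against 64.8, 67.8 and 80.0 CPM, with a log2 fold change of -1.93 (edgeR adjusted p = 0.00176). Of 9 epidermal fate genes, 1 was called lower, against 17.3% over all genes tested, and 8 were not called. The count lower was 4, 3 and 5 without sorted replicate 1, 2 and 3, and 0 whichever root library was left out. The 1 was GL2, the factor of non-hair cells, at 5.94, 8.82 and 9.75 CPM against 21.6, 19.7 and 19.2 CPM (log2 fold change -1.31, edgeR adjusted p = 0.0121), and the call was lost whichever root library was left out (edgeR adjusted p = 0.0545 to 0.0701).

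Genes of the ER body, an organelle that stores a defence glucosidase, were low in the mutant sort. All 9 tested were called lower, with a median log2 change of -2.33. PYK10, the glucosidase itself, was at 798, 572 and 856 CPM in the sort against 13035, 12100.1 and 13458 CPM in the root, a log2 change of -4.12 (SE 0.26, edgeR adjusted p = 0.000132). Per kilobase of exon PYK10 was the most abundant nuclear protein-coding transcript of the mutant root, at 7123 ± 384.9 CPM per kb (SD, n = 3), and the 148th of the mutant sort. JAL22, a jacalin-related lectin, was at 0.976, 1.13 and 0.582 CPM against 480.4, 363 and 362 CPM, a log2 change of -8.77 (SE 0.31, edgeR adjusted p = 2.56e-05). NAI1, the factor that drives ER body genes, was at 5.68, 5.42 and 6.98 CPM against 40.0, 41.9 and 38.9 CPM (log2 fold change -2.74, edgeR adjusted p = 0.000272).

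Meristem regulators were higher in the mutant sort. Of 12 genes of the stem cell niche and meristem, 8 were called higher and 4 not called, with a median of 1.77 (1.96 without sorted replicate 1). PLT2, a PLETHORA factor of the stem cell niche, was at 31.7, 62.6 and 101 CPM in the sort against 11.6, 12.3 and 10.6 CPM in the root, a log2 change of 2.50 (SE 0.41, edgeR adjusted p = 0.00424). RGF1, a peptide that maintains PLETHORA proteins, was at 2.40, 5.17 and 5.24 CPM against 0.276, 0.512 and 0.396 CPM, a log2 change of 3.40 (SE 0.62, edgeR adjusted p = 0.00662). That call was lost without root replicate 1 or 3 (edgeR adjusted p = 0.0537 and 0.0517). PLT1 was at 15.6, 58.7 and 68.8 CPM against 10.7, 10.6 and 12.8 CPM (log2 fold change 2.07, edgeR adjusted p = 0.0203), and WOX5, the quiescent centre factor, at 4.61, 12.5 and 9.75 CPM against 1.89, 1.96 and 2.46 CPM (log2 fold change 2.08, edgeR adjusted p = 0.0174). Sorted replicate 1 was the lowest sorted library for all 4, yet above every root. PLT1 and WOX5 were not called whichever root library was left out (edgeR adjusted p = 0.0781 to 0.0874 and 0.0707 to 0.0939), PLT1 also not without sorted replicate 3 (0.0513). The number of the list called higher was then 3, 4 and 3 without root replicate 1, 2 and 3.

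Most cell cycle genes, like most genes tested, were not called, and the counts depended on single libraries. Over all genes tested 29.6% were called, 12.3% higher and 17.3% lower. Of 18 S phase genes tested, 6 were called higher and 12 not, with a median of 0.66, and none passed a fold of 2. Without sorted replicate 1, 12 were called higher and 1 lower with a median of 0.92, while without root replicate 1, 2 and 3 the number higher was 0, 1 and 1. Of 22 mitosis genes, 6 were called higher and 16 not, with a median of 0.50. Without sorted replicate 1 the number higher was 13 and the median 0.80. The number higher was 0 whichever root library was left out. The summed S phase level was 577.6, 1144 and 942.5 CPM in the sort and 535.2 to 540.9 CPM in the root, and the summed mitosis level 425.5, 817.7 and 704.9 CPM against 467.6 to 487.1 CPM. Sorted replicate 1 was thus just above the roots for S phase and below them for mitosis, and the other 2 sorted libraries were above every root. E2FA, an activator of S phase genes, was at 20.14, 30.6 and 39.7 CPM against 9.68, 10.6 and 11.5 CPM (log2 fold change 1.51, edgeR adjusted p = 0.00858), and the call was lost without root replicate 1 (edgeR adjusted p = 0.052). MCM4, a subunit of the replicative helicase, had a log2 fold change of 1.096 (edgeR adjusted p = 0.0286). CDC20.2, an activator of mitotic protein breakdown, and CDKB1;2, a mitotic kinase, had 1.11 (edgeR adjusted p = 0.0179) and 1.11 (edgeR adjusted p = 0.0357). MCM4, CDC20.2 and CDKB1;2 were not called whichever root library was left out (edgeR adjusted p = 0.082 to 0.17), and MCM4 not without sorted replicate 2 or 3 (0.0532 and 0.0679). CDC20.2 shares 36.3% of its exon 50-mers with other places in the genome.

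Wounding, jasmonate and heat genes were the lists furthest above the root. Protoplasting strips the wall enzymatically and such genes are known to respond to it, and here that procedure and the cell type cannot be told apart. Of 15 wounding and rapid stress genes, 10 were called higher, 2 lower and 3 not called, with a median of 3.54 (3.18 without sorted replicate 1). The summed level of the list was 6781, 2292 and 3927 CPM in the sort against 244.2 to 280.0 CPM in the root. CML37, a calmodulin-like calcium sensor, was at 289, 82.1 and 161 CPM against 0.276, 0.326 and 0.0880 CPM, a log2 change of 9.55 (SE 0.70, edgeR adjusted p = 0.000212). ERF109, an ethylene-response factor that answers wounding, was at 287, 182 and 206 CPM against 1.01, 0.140 and 0.264 CPM, a log2 change of 8.88 (SE 0.65, edgeR adjusted p = 0.000212), or 10.04 without root replicate 1. Both were under 1.1 CPM in the roots and far above in every sorted library. WRKY40, a defence regulator, was at 1390.1, 539 and 831 CPM against 7.42, 6.28 and 6.87 CPM (log2 fold change 7.07, edgeR adjusted p = 0.000128). The 2 falls were PAD3, the last enzyme of camalexin synthesis, at 4.35, 0.378 and 4.66 CPM against 16.5, 26.4 and 28.0 CPM, and CYP81F2, an enzyme of indole glucosinolate metabolism, at 5.68, 6.30 and 1.31 CPM against 17.2, 23.1 and 21.7 CPM. Their log2 fold changes were -2.91 (edgeR adjusted p = 0.0199) and -2.21 (edgeR adjusted p = 0.0182), and neither was called whichever root library was left out (edgeR adjusted p = 0.0517 to 0.0866).

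Of 13 jasmonate genes, 11 were called higher and 2 not called, with a median of 4.45, or 12 and 3.34 without sorted replicate 1. The list summed to 4781, 1087 and 1826 CPM in the sort against 145.1 to 158.9 CPM in the root. LOX3 and LOX4, lipoxygenases that start jasmonate synthesis, were at 727, 58.1 and 122 CPM against 1.198, 0.140 and 0.528 CPM and at 470.3, 142 and 222 CPM against 1.71, 1.49 and 1.36 CPM. LOX3 had a log2 change of 8.91 (SE 1.32, edgeR adjusted p = 0.00284) and LOX4 a log2 change of 7.51 (SE 0.55, edgeR adjusted p = 0.000212). Without sorted replicate 1 they were 7.15 and 6.89, and without root replicate 1 LOX3 was at 9.76. JAZ10, a repressor of jasmonate response, was at 235, 60.7 and 80.6 CPM against 2.12, 0.838 and 2.42 CPM (log2 fold change 6.12, edgeR adjusted p = 0.00107). Sorted replicate 1 was the highest library for each of these genes, and the lowest sorted library was still above every root.

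All 8 heat shock genes tested were called higher, with a median of 4.74 (4.55 without sorted replicate 1), and 3 of 11 were too low to test. HSFA2, a heat shock factor, was at 44.4, 36.3 and 22.1 CPM against 0.276, 0.279 and 0.484 CPM, a log2 change of 6.59 (SE 0.44, edgeR adjusted p = 0.000162). HSP17.6II, a small heat shock protein, was at 93.1, 45.7 and 11.6 CPM against 0.230, 0.326 and 0.352 CPM, a log2 change of 7.34 (SE 0.87, edgeR adjusted p = 0.00122), or 6.52 without sorted replicate 1. The sorted libraries stood above every root for each of the 8, as they did for 19.8% of all genes tested. HSP70-4, a major chaperone, was at 2326, 693 and 586 CPM against 43.3, 61.2 and 42.3 CPM (log2 fold change 4.62, edgeR adjusted p = 0.00175).

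**Figure D4:**
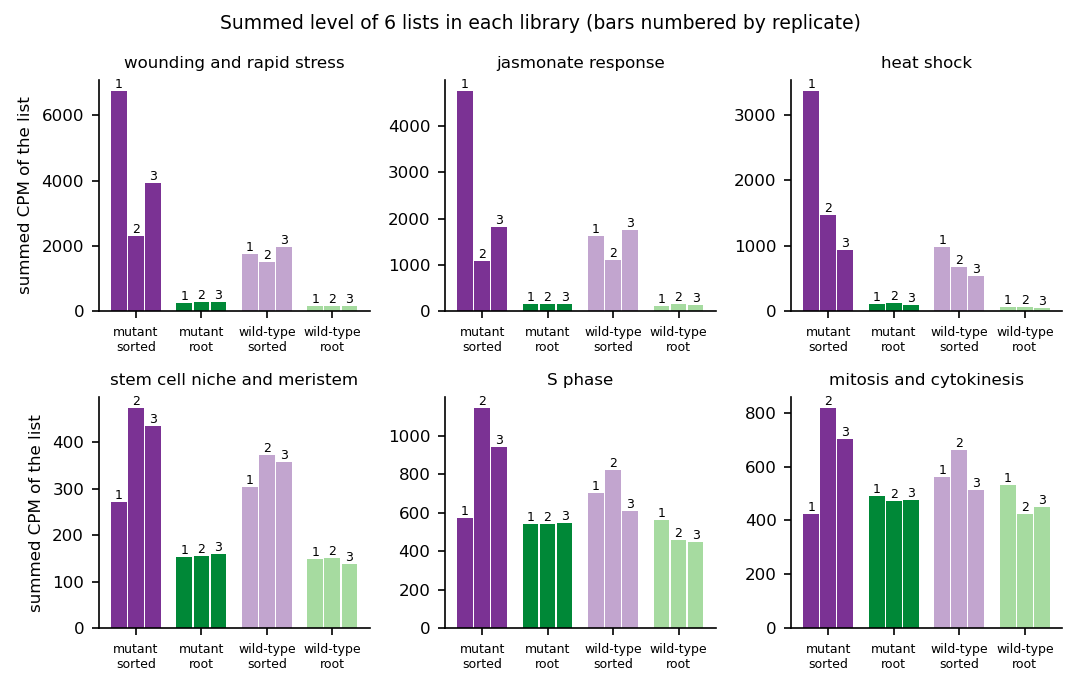
Summed CPM of 6 gene lists in each of the 12 libraries, scaled over all 12; bars are numbered by replicate and start at 0. The mutant sorted replicate 1 bar is the highest of the 3 stress lists and the lowest mutant sorted bar of the meristem, S phase and mitosis lists, and the wild-type sorted bars are above the wild-type roots for the stress lists too.

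The 250 bases before the annotated start of ERF109, LOX3 and LOX4 (TAIR10.1 reference genome from RefSeq, sense strand, 5′ to 3′) are shown as examples of windows that hold such motifs, from stress genes almost silent in the root. Capitals mark TTGAC on either strand, the core of the W-box bound by WRKY factors, CACGTG, the G-box bound by bHLH and bZIP factors, and CGCG, the core bound by calmodulin-binding CAMTA factors.
ERF109 (chr4:16451626-16451875, plus strand): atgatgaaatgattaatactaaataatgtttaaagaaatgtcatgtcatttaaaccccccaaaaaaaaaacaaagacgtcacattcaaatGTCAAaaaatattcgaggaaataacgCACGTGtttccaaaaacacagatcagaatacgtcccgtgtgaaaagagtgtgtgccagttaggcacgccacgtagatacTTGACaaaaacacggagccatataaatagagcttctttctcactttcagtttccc
LOX3 (chr1:5977073-5977322, plus strand): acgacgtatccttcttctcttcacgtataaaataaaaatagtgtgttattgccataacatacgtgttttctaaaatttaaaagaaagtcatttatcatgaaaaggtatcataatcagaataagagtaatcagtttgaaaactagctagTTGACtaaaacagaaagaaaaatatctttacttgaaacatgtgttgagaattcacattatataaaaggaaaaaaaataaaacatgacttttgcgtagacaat
LOX4 (chr1:27308263-27308512, plus strand): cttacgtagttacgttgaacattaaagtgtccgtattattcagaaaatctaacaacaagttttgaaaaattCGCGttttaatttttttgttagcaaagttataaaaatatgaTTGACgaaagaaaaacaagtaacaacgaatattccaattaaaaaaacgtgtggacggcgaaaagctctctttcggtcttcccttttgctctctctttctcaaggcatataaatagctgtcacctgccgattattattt
The ERF109 window held TTGAC on both strands and 1 G-box, the LOX3 window TTGAC and the LOX4 window TTGAC and CGCG. Among such windows of 26711 protein-coding genes, 45.0% held TTGAC, 6.6% CACGTG and 10.1% CGCG. TTGAC was present in 12 of 15 wounding genes (80.0%), 8 of 13 jasmonate genes (61.5%) and 4 of 11 heat shock genes (36.4%). CACGTG was present in 1, 5 and 2 of them, which is 6.7%, 38.5% and 18.2%, and CGCG in 1, 4 and 2. The windows of CML37 and HSP17.6II, among the largest rises of the wounding and heat shock lists, held none of the 3. A match of letters is not a bound site, and no factor binding was measured.

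Nutrient uptake genes of the outer root were low in the sort. Of 13 iron deficiency and coumarin genes tested, 9 were called lower and 4 not called, with a median of -2.00. IRT1, the root iron importer of the epidermis, had 2 counts in the sort against 3128 in the root, a ratio of 618.9 (exact 95% counting interval 171.2 to 5113). CYP82C4, which hydroxylates coumarins, had no count in the sort against 680, at least 89.7-fold lower. AHA2, the plasma membrane proton pump, was at 748, 674 and 829 CPM against 2789.7, 2792 and 3434 CPM (log2 fold change -2.00, edgeR adjusted p = 0.000562). BTS, a regulator of iron response, overlapped between tissues at 151, 91.7 and 138 CPM against 153, 139 and 117 CPM and was not called (edgeR adjusted p = 0.774). Of 6 nitrate and phosphate genes tested, 5 were called lower, or 3 without root replicate 1, 2 or 3. NRT1.1, a nitrate transporter and sensor, was at 6.74, 8.57 and 5.97 CPM against 153, 199 and 202 CPM, a log2 change of -4.70 (SE 0.24, edgeR adjusted p = 9.91e-05). PHT1;1, a phosphate importer, was at 0.798, 1.89 and 0.873 CPM against 115, 108 and 108 CPM, and 42.5% of its exon 50-mers occur elsewhere in the genome, so reads of close copies could be split.

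Aquaporins moved in both directions, with 8 of 18 called higher, 5 lower and 5 not called. The water channels that rose were of both the plasma membrane (PIP) and tonoplast (TIP) families. PIP2;3 was at 1151, 1139 and 1621 CPM in the sort against 122, 152 and 151 CPM in the root, a log2 change of 3.20 (SE 0.23, edgeR adjusted p = 0.000202), with 16.5% of its exon 50-mers shared with other loci. TIP2;1 was at 768, 245 and 242 CPM against 48.8, 64.5 and 90.13 CPM, a log2 change of 2.63 (SE 0.51, edgeR adjusted p = 0.00848), or 1.84 without sorted replicate 1. PIP2;1 had a log2 fold change of 1.87 (edgeR adjusted p = 0.00115) and TIP1;1 of 1.64 (edgeR adjusted p = 0.000655). PIP1;5 was at 24.3, 26.6 and 26.5 CPM against 129.7, 133 and 128 CPM, a log2 change of -2.34 (SE 0.16, edgeR adjusted p = 0.000163). PIP2;5 was at 0 counts in the sort and 46 in the root, at least 6.07-fold lower.

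The 8 rises with the largest fitted log2 fold change were taken from called genes whose tissues did not overlap and that reached 5 CPM in the sort. AT1G19210, an ERF-type transcription factor, was at 14.7, 13.1 and 16.3 CPM in the sort and at 0 in every root, at least 321.8-fold higher. CYP715A1, a cytochrome P450, was at 336, 34.0 and 116 CPM against 0.184, 0.0465 and 0.132 CPM, and AT2G38240, a 2-oxoglutarate oxygenase, at 930.1, 72.7 and 219 CPM against 0.599, 0.140 and 0.616 CPM. ABCG40, an abscisic acid importer, was at 775, 78.4 and 161 CPM against 1.11, 0.372 and 0.352 CPM. For all 3 the sorted libraries spread widely, with replicate 1 highest, and their log2 fold changes of 10.29, 9.79 and 9.10 were 9.17, 8.29 and 7.59 without it. ABCG40 was at 9.82 without root replicate 1. BHLH92, a bHLH factor, was at 148, 60.2 and 135 CPM against 0.369, 0.0465 and 0.176 CPM, a log2 change of 9.12 (SE 0.64, edgeR adjusted p = 0.000198), or 9.87 without root replicate 1. AT5G58680, an ARM-repeat protein, had 1073 counts in the sort against 3 in the root, a ratio of 903.8 (exact 95% counting interval 308.4 to 4390). AT4G33930, a cupredoxin, had a log2 fold change of 9.08 (edgeR adjusted p = 0.00173) with 12.2% of its exon 50-mers shared. It was 7.91 without sorted replicate 1 and 10.03 without root replicate 1. CML37 completes the 8.

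The 8 falls with the largest fitted log2 fold change were all at 0 counts in the 3 sorted libraries, so each fold is a lower bound. For such genes the fitted value depends on edgeR's prior count, so neither their order nor their rank against genes with a few counts, such as IRT1, SWEET12 and CIF2, is established. EARLI1, a lipid-transfer-type protein, was at 25.5, 22.6 and 54.1 CPM in the root and at least 299.2-fold lower in the sort. FRD3, which loads citrate into the xylem for iron transport, was at 16.5, 19.1 and 19.0 CPM and at least 158.3-fold lower. CTL2, a chitinase-like protein, was at 17.7, 20.9 and 18.3 CPM and at least 164.8-fold lower. The others were IRX9, the monooxygenase AT1G12200 (at least 203-fold), the receptor-like kinase AT5G63710 (at least 189.8-fold), the uncharacterised AT2G22122 (at least 142.5-fold) and the chitinase AT2G43570 (at least 137.8-fold).

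The wild-type libraries, scaled with the mutant ones over all 12, show which of these differences were shared. The wild-type sorted libraries were deeper than the mutant ones, at 17721913 to 24274637 counts, with rank correlations of 0.978 to 0.98 between replicates. Whether the 2 sorts held the same mix of cells was not tested, and a difference in that mix cannot be told apart from one in expression. Across 20302 genes the sort-against-root change had a Spearman rank correlation of 0.54 between genotypes, across genes, which share the procedure and are not independent. Of 5925 genes called in both genotypes, 85.8% changed in the same direction. The difference between the genotypes' changes was called for 5758 genes (28.4%), 2803 more positive in the mutant (13.8%) and 2955 more negative (14.6%). Of the inner-tissue lists, none of the phloem or stele genes and 3 of 15 xylem genes differed, and 15 xylem and 11 phloem genes were called lower in the wild-type sort too. Over all genes tested, 23.3% were called higher and 28.2% lower in the wild-type sort, and 18.4% and 26.2% in the mutant sort. Xylem genes summed to 14.2 to 28.6 CPM in the mutant sort and 20.5 to 36.8 CPM in the wild-type sort on the 12-library scale.

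Genes of the root cap, epidermis, root hairs and ER body differed between the genotypes. In root cap genes the median change was 0.67 in wild type, with 5 called higher, and -4.37 in the mutant, and the difference was called for 11 of 13, all more negative in the mutant. BRN1 was at 58.6, 72.3 and 69.5 CPM in the wild-type sort and 9.91, 8.03 and 6.93 CPM in the wild-type root, a difference between genotypes of -7.18 (SE 0.37, edgeR adjusted p = 4.36e-07). SMB stood at 23.1, 36.7 and 39.3 CPM and 8.86, 8.68 and 7.50 CPM there, a difference of -6.35 (SE 0.73, edgeR adjusted p = 8.89e-05), or -9.27 without mutant sorted replicate 1. For epidermal fate genes the wild-type median was 1.27 and 7 of 9 were more negative in the mutant. GL2 was at 58.6, 62.9 and 48.9 CPM in the wild-type sort and 21.9, 17.4 and 14.96 CPM in the root, a difference of -2.98 (SE 0.31, edgeR adjusted p = 4.28e-05). Of 14 root hair genes 9 were more negative in the mutant. All 9 ER body genes were more negative in the mutant, with a wild-type median of 0.05, and PYK10 was at 10057, 10451 and 10198 CPM in the wild-type sort. Summed over their lists on this scale, root cap genes were at 468.9 to 644.8 CPM in the wild-type sort, 374.2 to 679.7 CPM in the wild-type root and 52.8 to 91.7 CPM in the mutant sort. Epidermal fate genes were at 236.4 to 334.2 CPM in the wild-type sort, 110.1 to 128.8 CPM in the wild-type root and 48.1 to 75.5 CPM in the mutant sort. ER body genes were at 19324 to 20748 CPM in the wild-type sort, 23046 to 26655 CPM in the wild-type root and 1724 to 2548 CPM in the mutant sort. No mutant sorted library reached the lowest wild-type sorted library for any of these 3 lists. The root hair list did overlap, at 582.5, 337.3 and 564.9 CPM in the mutant sort and 450.5, 493.4 and 613.3 CPM in the wild-type sort. So did the summed iron list and the summed nitrate and phosphate list. The whole roots differed for the root hair list, at 1231, 1190 and 1513 CPM in the mutant and 562.2, 1171 and 843.3 CPM in wild type. Its more negative changes in the mutant therefore do not show a lower level in the mutant sort than in the wild-type sort.

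Endodermal genes differed the other way. The change was more positive in the mutant for 8 of 9 ground tissue genes and 17 of 25 suberin genes, and more negative for none of the first and for FAR1 and ABCG1 of the second. SCR was at 231, 335 and 324 CPM in the wild-type sort and 72.8, 57.8 and 58.0 CPM in the wild-type root, and the mutant change was larger by 1.77 (SE 0.26, edgeR adjusted p = 0.000444). Suberin genes had a median change of -2.69 in the wild-type sort. MYB41 was at 1.29, 1.79 and 0.843 CPM there and 1.63, 2.88 and 2.25 CPM in the wild-type root, a difference of 3.80 (SE 0.52, edgeR adjusted p = 0.00028). CYP86B1 was at 0.590, 1.70 and 1.63 CPM against 36.00, 59.2 and 52.1 CPM, a difference of 4.97 (SE 0.44, edgeR adjusted p = 1.67e-05). CYP86A1 was low in both sorts, and its difference of 1.06 was not called (edgeR adjusted p = 0.397). CCOAOMT1 rose in both sorts, by log2 fold changes of 1.83 and 1.81 (difference 0.03, edgeR adjusted p = 0.957), whereas PAL1 was at 106, 111 and 209 CPM in the wild-type sort and 613, 786 and 687 CPM in the wild-type root, a difference of 3.59 (SE 0.34, edgeR adjusted p = 2.18e-05). Casparian strip genes were more positive in the mutant for 10 of 25 and more negative for PER9 and CIF2. The list summed to 5469, 3653 and 4664 CPM in the mutant sort, below every wild-type sorted library at 5934, 8219 and 8779 CPM. It summed to 673.7 to 723.9 CPM in the mutant root and 2217 to 2845 CPM in the wild-type root. CASP1 is an example of a larger change at a lower level: it was at 639.9, 1326 and 1044 CPM in the wild-type sort and 213, 294 and 241 CPM in the wild-type root, and the mutant change was larger by 1.40 (SE 0.41, edgeR adjusted p = 0.0237). That call was lost without mutant sorted replicate 3 (1.13, edgeR adjusted p = 0.0501), mutant root replicate 2 or 3 (adjusted p = 0.0648 and 0.054) and wild-type root replicate 2 (1.25, adjusted p = 0.0607).

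Stress lists were high in both sorts. The wounding, jasmonate and heat shock lists had wild-type medians of 2.51, 3.68 and 5.98 in the fit of all 12 libraries. Their mutant medians in the same fit were 3.52, 4.43 and 4.65. The change was more positive in the mutant for 3, 2 and 1 of their 15, 13 and 11 genes and more negative for 2, 1 and 2. Over all genes tested 13.8% were more positive and 14.6% more negative, so these counts do not set the lists apart. Median differences, mutant minus wild type, were 0.44, 0.69 and -2.85. ERF109 was at 25.1, 20.09 and 27.5 CPM in the wild-type sort and 0.0813, 0.131 and 0.176 CPM in the wild-type root, and its difference of 1.38 was not called (edgeR adjusted p = 0.279). CML37, at 7.99, 7.13 and 11.9 CPM in the wild-type sort, rose further in the mutant by 4.37 (SE 0.93, edgeR adjusted p = 0.00414). The meristem list had a wild-type median of 0.59, and 3 of its 12 genes were more positive and 1 more negative in the mutant. PLT1 differed by 0.99 and was not called (edgeR adjusted p = 0.232). WOX5, at 0.215, 0.583 and 0.361 CPM in the wild-type sort and 2.44, 2.22 and 1.94 CPM in the root, differed by 4.53 (SE 0.66, edgeR adjusted p = 0.000407).

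**Figure D5:**
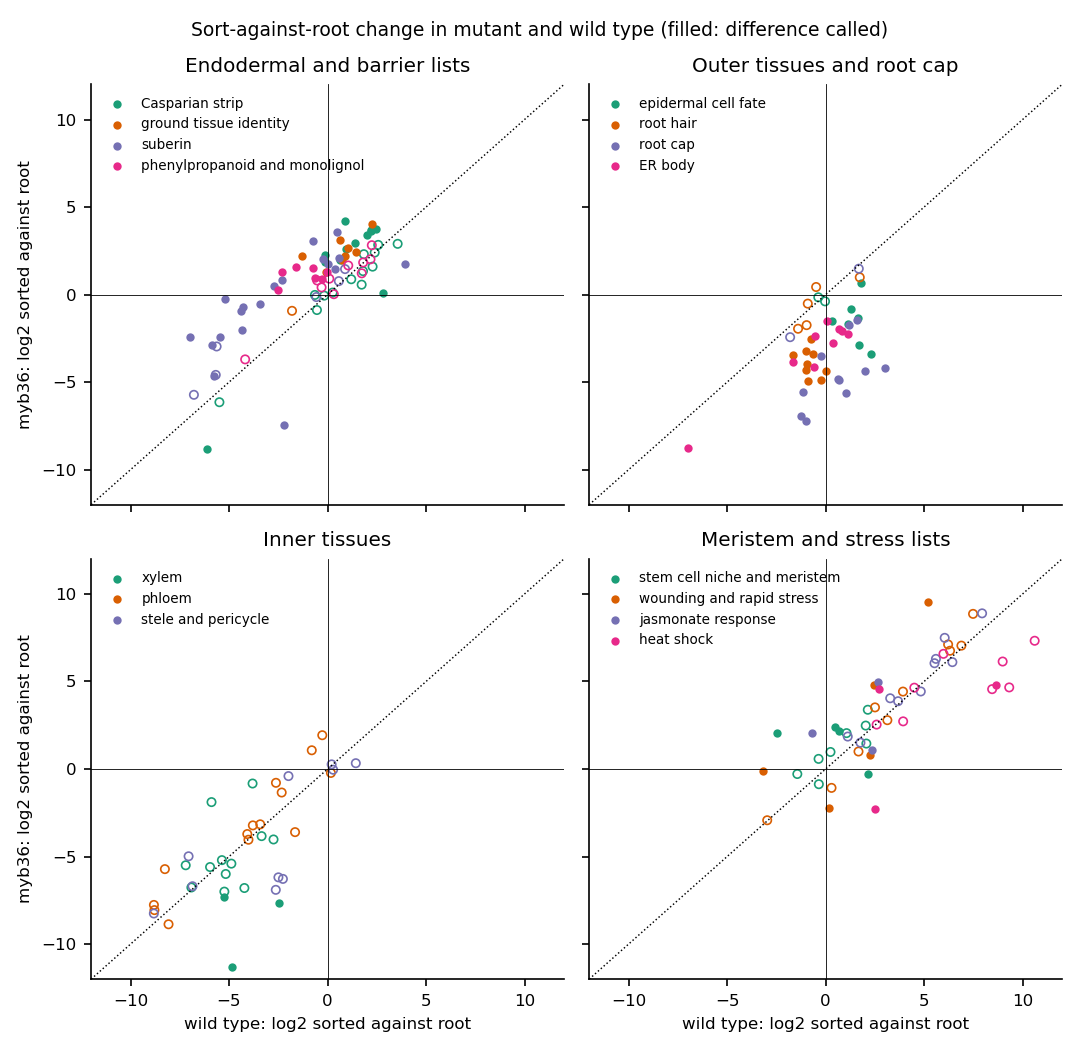
Log2 sort-against-root change in wild type (horizontal) and in the mutant (vertical) for members of 15 gene lists, from the fit of all 12 libraries; filled points are genes whose change differed between genotypes, open points those not called, and the dotted line marks equal change. Most root cap, epidermal and ER body genes lie below the line, most suberin and ground tissue genes above it, and phloem genes scatter about it with none called.

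Some of these genes overlap another gene on the opposite strand, and no source used here states whether counting used strand, so reads of the partners cannot be told apart. Among genes named above this holds for CASP1, CASP5, ESB1, PER64, DIR9, DIR16, DIR18, GSO1, FAR1, ASFT, ABCG1, ABCG2, MYB9, CCR2, AED3, VND6, CESA7, NPF7.3, GL2, EXPA18, PER73, E2FA, CDKB1;2, WRKY40, ERF109, JAZ10, TIP2;1, PYK10 and EARLI1. AT1G19210, GL2, MYB53 and MYB92 overlap another gene on the same strand.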

How the data were processed

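Strand-specific RNA libraries (ScriptSeq v2) were sequenced from 3 biological replicates per group, per the labels, and the authors deposited raw read counts for 33602 loci. The submitters' processing notes name TopHat2, SAMtools, Cufflinks, Cuffdiff, HTSeq and the TAIR10 build, with no version or role, and no source used here states the use of strand. The deposited counts of each library were used; tables normalized separately within sorted or whole-root libraries were not used here. P-values measure the spread between these replicates.

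Genes were filtered by edgeR's default rule and scaled by trimmed mean of M values, and the 6 mutant libraries were fitted with edgeR's quasi-likelihood test (edgeR 4.0.16, limma 3.58.1, R 4.3.3) with Benjamini-Hochberg adjustment over all genes tested. A 2-fold threshold used edgeR's test against a log2 fold change of 1. The difference between genotypes was the interaction term of a fit of all 12 libraries. The SE is the size of the log2 fold change over the square root of the F statistic. Folds of genes with 1 to 3 counts in a tissue are ratios with exact intervals, those at 0 lower bounds against 3 counts over the group. Both, like the 95% intervals, cover counting error only, and reads without molecular identifiers are not independent molecules. CPM per kb divides by exon length in TAIR10.1 (RefSeq); sequences and overlaps come from that build. The scripts were tested on simulated data.

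Members and lists were chosen with earlier results of these data known. Named by rule were MYB36, 14 defining markers, the 2 called members of each list with the largest rise and the 2 with the largest fall, the 8 largest rises and falls over called protein-coding genes with at least 5 CPM in the higher tissue and no overlap, and the 3 largest differences from wild type in each direction. Alternatives were other scalings, filters, tools (DESeq2 1.42.0, limma-voom), thinning to 7280556 counts, organelle loci left out, the replicate number as a block, a fit of all 12 libraries and each library left out. Same-numbered sorted and root libraries deviated with correlations of -0.0881, -0.0577 and -0.039, so the numbers were not taken to pair samples.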

Additional observations from a re-analysis of the deposited data

Results flagged for a closer look

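The sort-against-root change differed between mutant and wild type for 5758 of 20302 genes in edgeR's interaction test, and the values below are log2 differences, mutant minus wild type, from that fit. Among defining markers, SCR (1.77), CASP1 (1.40), the cortex gene AED3 (4.03) and the quiescent centre factor WOX5 (4.53) were more positive in the mutant. The epidermal factor GL2 (-2.98) and the root cap factors SMB (-6.35) and BRN1 (-7.18) were more negative. Without mutant sorted replicate 1 AED3 was at 3.27 and SMB at -9.27, and without mutant root replicate 3 AED3 was at 4.62. AED3 was at 0.107, 0.493 and 0.481 CPM in the wild-type sort and 3.37, 5.10 and 2.29 CPM in the wild-type root.

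The 3 genes with the most positive differences were GLIP2 (13.21), a secreted lipase, ALD1 (8.45), an enzyme of pipecolic acid synthesis, and AT1G40104 (7.86), of which 70.2% of exon 50-mers occur elsewhere. GLIP2 was at 1.95, 2.39 and 1.46 CPM in the mutant sort and 0.138, 0.233 and 0.264 CPM in the mutant root, and at 0, 0 and 0 and 8.21, 5.19 and 8.78 CPM in the wild-type sort and root. The 3 most negative were AT2G21550 (-10.84), a dihydrofolate reductase and thymidylate synthase, LAS1 (-10.40), lanosterol synthase, and AT4G13495 (-10.15), which overlaps another gene on the same strand. LAS1 was at 0, 0 and 0 CPM in the mutant sort and 4.19, 4.28 and 4.44 CPM in the mutant root, and at 12.0, 13.2 and 18.2 and 6.14, 8.72 and 5.60 CPM in the wild-type sort and root. Fitted differences of genes at 0 in a group depend on edgeR's prior count and are no measure of size. AT1G40104 was at 9.10 without mutant root replicate 3 and 10.41 without wild-type sorted replicate 2. With 3 libraries a group, no single sample was tested for standing apart.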

How the results depend on the processing

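The number of genes called depended on the libraries in the fit. It fell whichever root library was left out and rose whichever mutant sorted library was left out. Leaving out 1 library gave 2905 to 8557 genes called, 1085 to 3669 higher and 1808 to 4888 lower; past 2-fold the ranges were 1313 to 3912, 467 to 1282 and 846 to 2703. The difference from wild type ranged from 4299 to 7880 genes, 2087 to 3507 more positive and 2180 to 4373 more negative. One fit of all 12 libraries called 9057 genes, 3741 higher and 5316 lower. With the replicate number as a block, 3928 genes were called and 1559 were higher; WOX5, RGF1, CDC20.2, CDKB1;2, MYB83, PIP2;5 and RBCS1A were then not called. DESeq2 called 7074 genes and limma-voom 6940; other scalings and filters gave 5347 to 5718, and thinning 5271. Epidermal fate genes called lower, 1, were 4 with DESeq2 and 5 with limma-voom. The share of calls that were higher ran from 36.6% to 43.9%. The number of mitosis genes called higher, 6, fell to 0 with the block, 1 without a filter and 3 with upper-quartile scaling. The photosynthesis list fell from 5 lower to 3 with the block. The difference of SUC2 from wild type, 0.57 and not called, ranged from -1.72 (edgeR adjusted p = 0.0304, without mutant sorted replicate 3) to 1.08 with 1 library left out. Differences of APL (-2.28, without sorted replicate 2), CESA7 (-2.08, without sorted replicate 3) and PLT1 (1.38, without sorted replicate 1) were gained. The cause was not tested. At the depth of these libraries a gene under 0.138 to 0.412 CPM cannot be told from absent.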

Other observations

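Of 12 tested genes of the abscisic acid response, 4 were called higher in the mutant sort than in the mutant root, 2 lower and 6 not called. Over all genes tested 12.3% were called higher and 17.3% lower. The list had a median log2 fold change of 0.77, or 0.29 without sorted replicate 1. HAI1, a phosphatase induced by abscisic acid, was at 194, 43.0 and 101 CPM in the sort against 4.15, 6.47 and 5.81 CPM in the root, a log2 change of 4.36 (SE 0.57, edgeR adjusted p = 0.00173). NCED3, the rate-limiting enzyme of abscisic acid synthesis, was at 416, 84.3 and 118 CPM against 14.0, 19.3 and 23.5 CPM, a log2 change of 3.45 (SE 0.63, edgeR adjusted p = 0.00659). In both the sorted libraries spread widely, with replicate 1 highest, and all were above every root. Without it HAI1 was at 3.70 and NCED3 at 2.41. KIN1, a cold- and abscisic acid-induced gene, was at 24.7, 10.5 and 3.35 CPM against 102, 121 and 113 CPM, a log2 change of -3.10 (SE 0.61, edgeR adjusted p = 0.00857), or -4.00 without sorted replicate 1. RD29B, a classic target of the hormone, had no count in the sort and 202 in the root, at least 26.6-fold lower.

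Transcripts of photosynthesis, which reach roots only at low level, were lower still in the sort. Of 6 tested of 12 members, 5 were called lower and 1 was not called. PSAD1, a subunit of photosystem I, had 3 counts in the sort, all in replicate 2, against 1096 in the root, a ratio of 144.6 (exact 95% counting interval 49.34 to 702.1). RBCS1A, the small subunit of Rubisco, had no count against 182, at least 24-fold lower. RCA, Rubisco activase, was at 1.51, 1.76 and 3.20 CPM against 22.8, 29.1 and 42.0 CPM (log2 fold change -3.88, edgeR adjusted p = 0.000813).

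Per kilobase of exon, the most abundant nuclear protein-coding transcripts of the mutant sort were the uncharacterised AT2G16586, at 18690.0 ± 5744 CPM per kb, and GAPC1, a glycolytic dehydrogenase, at 3044 ± 1095 CPM per kb (SD, n = 3). AT1G62480, annotated as a vacuolar calcium-binding protein, ranked 10 in the sort and 88 in the root, with a log2 fold change of 1.95 (edgeR adjusted p = 0.000666).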
